A study of Gallus gallus with 3 samples.

Results

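The 10 Toll-like receptor genes of the chicken named in the deposited expression table were described in the resting jejunal mucosa. They are TLR1A, TLR1B, TLR2A, TLR2B, TLR3, TLR4, TLR5, TLR7, TLR15 and TLR21, and they were picked out by gene symbol from 15675 genes with a value. The tissue came from Leuang Hang Kao breeder hens, a genotype that the series title calls heat-adapted, aged 28 weeks. The libraries analysed here are the control group, kept at the thermoneutral temperature of 23 °C, and no other allele, agent or treatment is given for them. Each library holds RNA pooled from 4 hens, and 12 hens of the 25 in the control arm gave 3 pools, called pools 1, 2 and 3. The study also held hens at 36 °C for 6 h, but that arm was not analysed here, so no effect of heat is reported. The spread given below is thus one between pooled samples and says nothing of single hens.

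Toll-like receptors are single-pass membrane proteins that bind conserved molecules of microbes through leucine-rich repeats and signal through a cytoplasmic domain called TIR. In birds, heterodimers of TLR1 and TLR2 types sense lipopeptides at the cell surface, TLR4 senses lipopolysaccharide with its partner MD-2, and TLR5 senses bacterial flagellin. TLR3 and TLR7 sense double-stranded and single-stranded RNA in endosomes, and TLR21 senses DNA with unmethylated CpG there, which TLR9 does in mammals. The chicken lacks TLR9. TLR15 is known from birds and reptiles and responds to microbial proteases. In the gut these receptors are read in epithelium, leukocytes, vessels and stroma together, and a bulk library cannot tell a change in the number of such cells from a change in RNA per cell.

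Values are FPKM, sequenced fragments corrected for the length of the transcript and the size of the library, and levels were compared between genes on that scale. The transcript lengths and the counting behind the values were not checked here, so the comparison between genes takes the deposited values as given. The number of genes at 1 FPKM or more was 11217 to 11810 per pool, and the sequencing depth behind the values was not determined. Epithelial content was checked with 10 enterocyte markers, all of which were detected in every pool, with a median gene at 831 FPKM. These markers cannot tell the jejunum from other parts of the small intestine. EPCAM, the epithelial adhesion molecule, was at 2061 ± 147 FPKM (SD, n = 3). Pools 1 and 3 stood apart in marker genes of smooth muscle, stroma and enterocytes. Summed FPKM of 8 smooth muscle markers was 254, 512 and 891 in pools 1, 2 and 3, and that of 10 stroma markers was 222, 429 and 701. That of the 10 enterocyte markers was 57462, 50676 and 20381. The median enterocyte marker differed by -0.49 on the log2(FPKM + 1) scale when pool 3 was set against the average of pools 1 and 2. On the same measure the median smooth muscle marker differed by 1.27 and the median stroma marker by 1.05.

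All 10 receptors were detected in every pool, as were most genes: 1384 of the 15675 were listed at 0 in a pool. Of the receptors, 9 lay below the median of all genes. Their mean FPKM ran from 0.323 for TLR2B to 10.8 for TLR3. Of the 10, 8 had a mean of at least 1 FPKM, 6 reached 1 FPKM in every pool, and TLR15 and TLR2B reached it in none. A mean of at least 1 FPKM was also found for 11570 of all 15675 genes. The share at 1 FPKM in every pool was not computed over all genes. The median receptor was at 2.03 FPKM, beside 6.64 FPKM for the median of all 15675 genes. TLR3 was the only member above that median, with 59.6% of genes below it, followed by TLR21 with 48.3% below it.

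**Figure D1:**
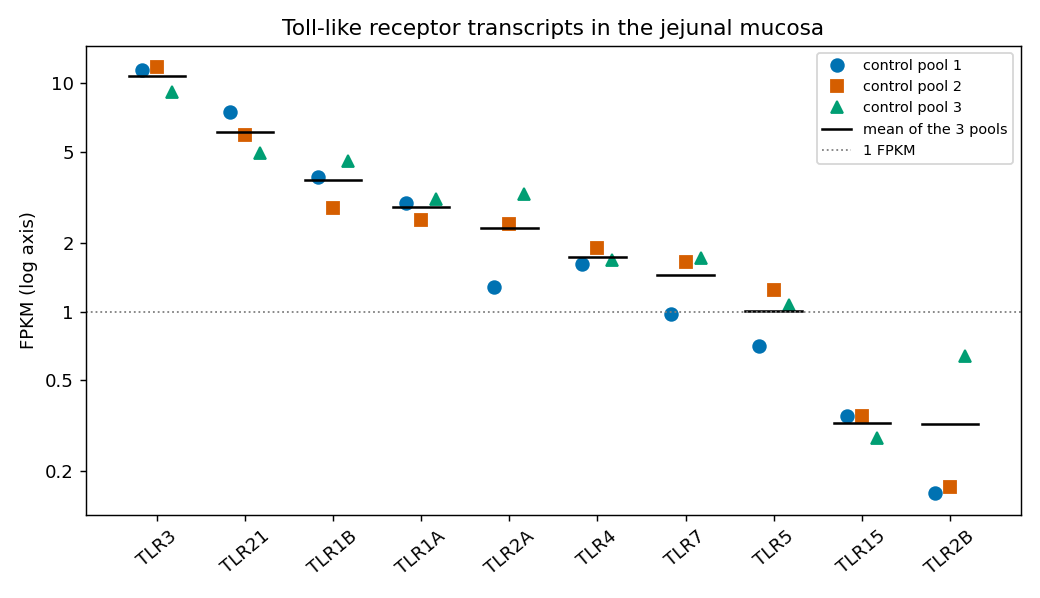
FPKM (vertical log axis) of the 10 Toll-like receptors in each of the 3 control pools (points) with the mean of the pools (bar), ordered by mean. TLR3 and TLR21 lead in every pool, and TLR15 and TLR2B lie under 1 FPKM in every pool.

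Of the receptors of nucleic acids, TLR3 and TLR21 had the highest levels of the family, and TLR7 was among the lower members. TLR3, the receptor of double-stranded RNA, was at 11.40, 11.75 and 9.14 FPKM in pools 1, 2 and 3, a mean of 10.8 ± 1.42. Pool 3 was the lowest, and each pool lay above every value of the other receptors. TLR21, the CpG DNA receptor, was at 7.48, 5.92 and 4.95 FPKM, a mean of 6.12 ± 1.28. It was highest in pool 1 and lowest in pool 3. TLR7, the receptor of single-stranded RNA, was at 0.98, 1.65 and 1.71 FPKM, a mean of 1.45 ± 0.405. Pool 1 alone lay under 1 FPKM. Within pools TLR3 exceeded TLR7 by 2.27 ± 0.37 on the log2(FPKM + 1) scale and TLR21 exceeded TLR7 by 1.54 ± 0.50 (mean ± SD of the within-pool differences, n = 3).

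TLR21 carries an uncertainty of annotation. In RefSeq's gene models for GRCg7b, which is not the build of the deposited values, TLR21 overlaps SLC7A6, an amino acid transporter gene. SLC7A6 was at 126.90, 119.21 and 105.30 FPKM in pools 1, 2 and 3, far above TLR21, and like TLR21 it was highest in pool 1 and lowest in pool 3. Whether reads were counted by strand, and how reads in overlaps were treated, is not given in the sources used here, so the part of SLC7A6 in the TLR21 values was not tested. Of the other members, TLR2A, TLR2B, TLR5 and TLR15 are also overlapped by another RefSeq gene, and TLR1A, TLR1B, TLR3, TLR4 and TLR7 are not. The genes that overlap TLR2A, TLR2B, TLR5 and TLR15 have no deposited value under their symbols, so their levels could not be set beside these receptors.

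The lipopeptide receptors differed in level, from TLR1B and TLR1A, the next after TLR21, to TLR2B at the foot of the family. TLR1B was at 3.87, 2.84 and 4.57 FPKM in pools 1, 2 and 3, a mean of 3.76 ± 0.870, and TLR1A was at 3.0, 2.51 and 3.12 FPKM, a mean of 2.88 ± 0.323. Both had their peak in pool 3 and their lowest value in pool 2, and TLR1A was the lower gene in all 3 pools, with a difference of TLR1A minus TLR1B of -0.28 ± 0.15 on the log2(FPKM + 1) scale. Their ranges overlapped, since TLR1A in pools 1 and 3 exceeded TLR1B in pool 2.

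TLR2A was at 1.28, 2.41 and 3.26 FPKM in pools 1, 2 and 3, a mean of 2.32 ± 0.993, with the lowest value in pool 1. TLR2B was at 0.16, 0.17 and 0.64 FPKM, a mean of 0.323 ± 0.274, which rests on pool 3 and is 0.165 FPKM without it. TLR2A exceeded TLR2B by 1.30 ± 0.29 on the log2(FPKM + 1) scale, and the ratio of their FPKM was 8.0, 14.2 and 5.09 in pools 1, 2 and 3. The ranges did not overlap. TLR2A and TLR2B are neighbours in the RefSeq gene order, as are TLR1A and TLR1B. Each pair arose by duplication and shares stretches of sequence, and how the authors' counting split shared reads is not given in the sources used here, so the ratio within each pair is uncertain.

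The receptors of lipopolysaccharide and flagellin were low. TLR4 was at 1.62, 1.9 and 1.69 FPKM in pools 1, 2 and 3, a mean of 1.74 ± 0.146, and had the smallest coefficient of variation of the family, at 8.39%. TLR5 was at 0.71, 1.24 and 1.07 FPKM, a mean of 1.01 ± 0.271, so its place above 1 FPKM rests on pools 2 and 3. TLR4 exceeded TLR5 by 0.46 ± 0.14 on the log2(FPKM + 1) scale, and their ranges did not overlap. TLR15 was at 0.35, 0.35 and 0.28 FPKM, a mean of 0.327 ± 0.0404. TLR15 and TLR2B had nearly the same mean, but TLR15 was the higher in pools 1 and 2 and TLR2B in pool 3.

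By mean FPKM the order was TLR3, TLR21, TLR1B, TLR1A, TLR2A, TLR4, TLR7, TLR5, TLR15 and TLR2B. TLR3, TLR21 and TLR1B held the leading places in that order in each of the 3 pools. Of the 9 neighbours in the order, 3 had ranges over the pools that did not overlap: TLR3 over TLR21, TLR21 over TLR1B, and TLR5 over TLR15. The second of these was narrow in pool 3, where TLR21 was at 4.95 FPKM and TLR1B at 4.57. The ranges of the remaining 6 neighbours overlapped. Within pools, TLR1B exceeded TLR1A and TLR7 exceeded TLR5 in all 3, the second by 0.28 ± 0.09 on the log2(FPKM + 1) scale. TLR1A and TLR2A, TLR2A and TLR4, TLR4 and TLR7, and TLR15 and TLR2B changed places between pools and did not differ beyond their spread. Over all 45 pairs of members, 37 had ranges that did not overlap. The same was not computed for pairs drawn from all genes. This count and that of 3 of 9 neighbours are therefore not read as particular to the receptors. With 3 pools, an exact permutation test that flips the signs of the within-pool differences (two-sided) cannot go under a p of 0.25, which 15 of the 19 comparisons of neighbours and of related genes reached. The smallest Benjamini-Hochberg adjusted p over these 19 was 0.317, so no comparison could pass a threshold of 0.05.

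The summed level of the family hardly differed between pools, while its make-up did. The 10 receptors summed to 30.85, 30.74 and 30.43 FPKM in pools 1, 2 and 3, a mean of 30.7 ± 0.218. The 3 endosomal receptors TLR3, TLR7 and TLR21 held 64.4%, 62.8% and 51.9% of that sum. The 7 other receptors summed to 10.99, 11.42 and 14.63 FPKM, against 19.86, 19.32 and 15.80 FPKM for the endosomal receptors. TLR3 alone held 37.0%, 38.2% and 30.0% of the sum, and TLR2A held 4.15%, 7.84% and 10.7%. Without TLR21, whose annotation overlaps SLC7A6, the sums were 23.4, 24.8 and 25.5 FPKM and the endosomal share was 53.0%, 54.0% and 42.6%. The even sum was picked out after the values were seen, and its SD without TLR21 was 1.08 FPKM.

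**Figure D2:**
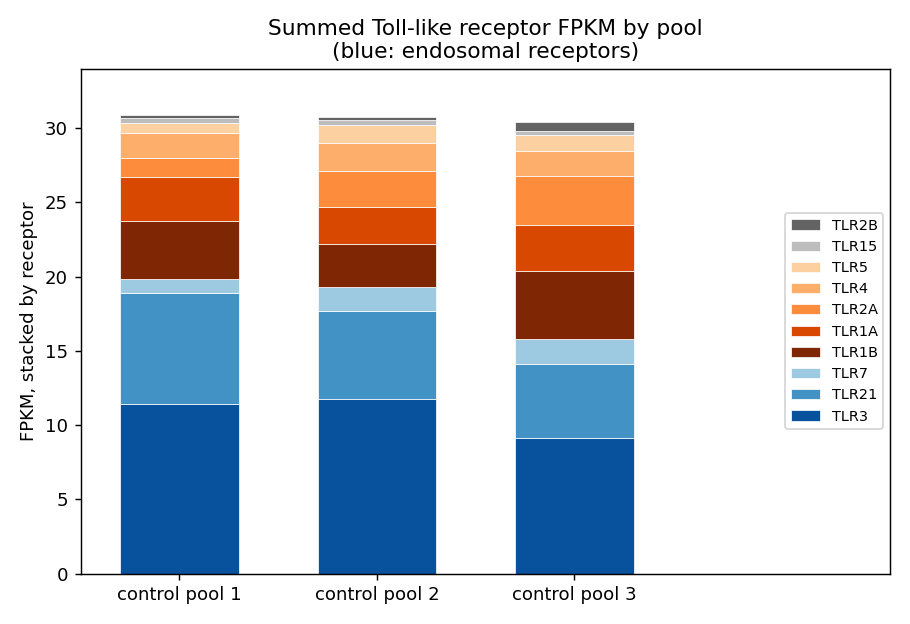
FPKM of the 10 Toll-like receptors stacked for each control pool (vertical axis from 0), with the endosomal receptors TLR3, TLR21 and TLR7 in blue at the base. The stacks reach 30.85, 30.74 and 30.43 FPKM, and the blue part is smallest in pool 3, at 15.80 FPKM.

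Single receptors varied between pools, and TLR2A varied more than the other members above 1 FPKM. Among the 8 receptors with a mean of at least 1 FPKM, 0 had a range between the highest and lowest pool above 1 on the log2(FPKM + 1) scale, against a background of 7.06% of 11570 genes with such a mean. The median range of these 8 was 0.42, beside 0.33 over the 11570 genes. With 8 receptors, a count of 0 is near that background. TLR2A had the widest range, at 0.90, and TLR4 the narrowest, at 0.15. This scale understates differences of genes as low as these: with a pseudocount of 0.1 the range was 1.28 for TLR2A and 1.51 for TLR2B, which has a mean under 1 FPKM. The lowest value was in pool 1 for 4 of the 8 receptors (TLR2A, TLR4, TLR5 and TLR7), against a background of 51.6% of genes, in pool 2 for 2 (TLR1A and TLR1B), against 20.8%, and in pool 3 for 2 (TLR3 and TLR21), against 27.6%. The highest value was in pool 3 for 4 (TLR1A, TLR1B, TLR2A and TLR7), against a background of 52%, in pool 2 for 3 (TLR3, TLR4 and TLR5), against 23.1%, and in pool 1 for 1 (TLR21), against 24.8%. With 8 receptors these shares are near the background.

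Single receptors departed from their own level in different pools. Each pool was set against the average of the other pools on the log2(FPKM + 1) scale. TLR2A read -0.74 in pool 1 and 0.61 in pool 3. TLR7 and TLR5 read -0.44 and -0.33 in pool 1. TLR3 and TLR21 read -0.31 and -0.36 in pool 3, and TLR21 read 0.40 in pool 1. TLR1B departed mainly in pool 2, at -0.44. In pool 3, TLR1A, TLR1B, TLR2A, TLR5 and TLR7 were above 0, like the median of all genes at 0.10, and TLR3, TLR4 and TLR21 were below it.

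Marker genes of several cell types differed between the same pools. All 10 stroma markers and all 8 smooth muscle markers had their lowest value in pool 1 and their highest in pool 3. Endothelial markers summed to 98.6, 139 and 237 FPKM in pools 1, 2 and 3, macrophage and dendritic markers to 230, 271 and 330, and T and NK cell markers to 825, 892 and 1038. B and plasma cell markers summed to 1455, 1983 and 3559 FPKM, of which JCHAIN alone held 1361, 1897 and 3458. PAX5 of the same list was highest in pool 1, at 5.89, 1.27 and 2.55 FPKM in pools 1, 2 and 3. Among markers with a mean of at least 1 FPKM, 13 of 16 macrophage and dendritic ones were lowest in pool 1. So were 9 of 11 T and NK cell markers and 8 of 9 endothelial markers, against a background of 51.6% of genes. Of 8 such B and plasma cell markers, 4 were lowest in pool 1, near that background, and 2 were highest there. The 4 of 8 receptors lowest in pool 1 (TLR2A, TLR4, TLR5 and TLR7) are near that background. No marker of these lists was listed at 0 in a pool. Enterocyte markers ran the other way, and all 10 were lowest in pool 3, against a background of 27.6% of genes. The 2 of 8 receptors lowest there, TLR3 and TLR21, are near that background. The part of cell content in the receptors' values was not tested.

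Markers of heterophils were mostly low and those of thrombocytes mixed in level, both being blood cells of birds that express Toll-like receptors. Of 8 heterophil markers measured, 3 had a mean of at least 1 FPKM, and the leading one, SRGN, a granule proteoglycan at 952 ± 278 FPKM, is expressed by many leukocytes. CSF3R, the receptor of granulocyte colony-stimulating factor, was at 4.78 ± 1.23 FPKM, and the cathelicidin CATH1 and LECT2 were listed at 0 in at least 1 pool. Of 8 thrombocyte markers measured, 6 had a mean of at least 1 FPKM, with a median of 5.74 FPKM. The list summed to 37.7, 50.2 and 52.9 FPKM in pools 1, 2 and 3. The platelet glycoprotein GP5 was at 23.3 ± 4.17 FPKM, THBS1 at 9.46 ± 5.12, and F13A1 was listed at 0 in pool 1.

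**Figure D3:**
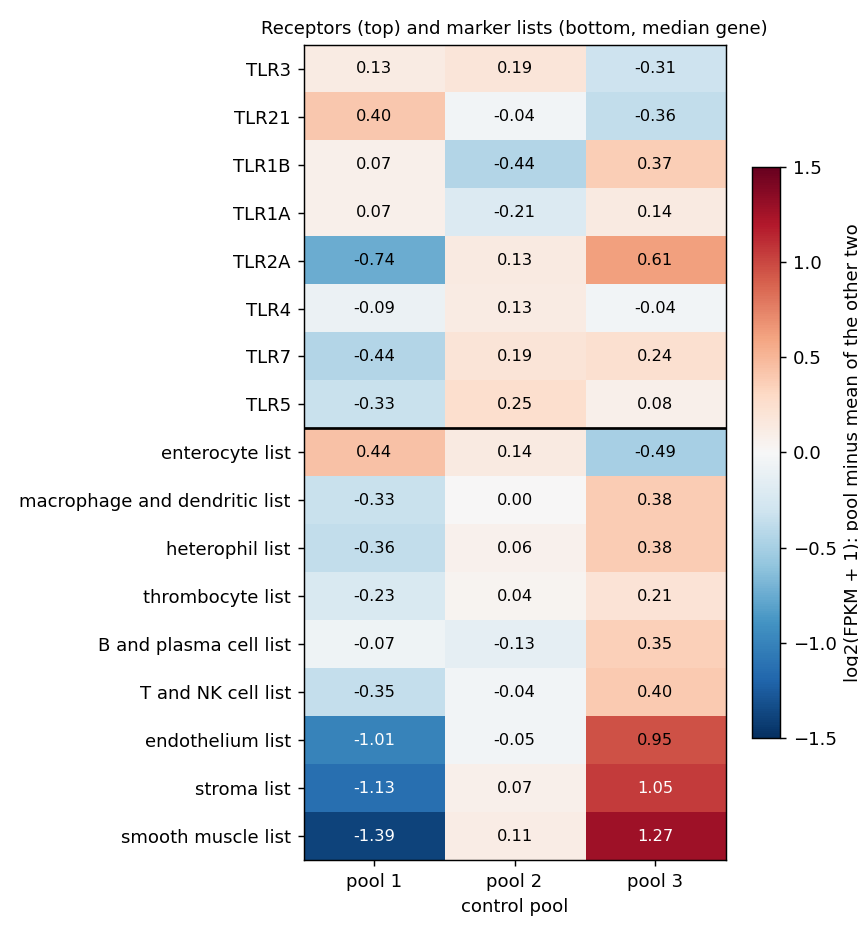
For each control pool (columns), the difference in log2(FPKM + 1) from the average of the other pools, for the 8 Toll-like receptors with a mean of at least 1 FPKM (upper rows) and for the median gene of each marker list (lower rows). TLR2A reads -0.74 in pool 1 and 0.61 in pool 3, TLR3 and TLR21 are below 0 in pool 3, and the stroma and smooth muscle lists have the widest contrasts.

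For each receptor, the genes of the fixed lists with the most similar deviations over the 3 pools were found among 178 candidates, by the root mean square difference on the log2(FPKM + 1) scale. TLR2A was closest to MPEG1, a pore-forming protein of macrophages, with a difference of 0.00091, and MPEG1 was at 23.69, 35.87 and 45.10 FPKM. TLR4 was closest to CNPY3, a chaperone that Toll-like receptors need for folding, with a difference of 0.0066, and to LY86, an MD-2 relative, with 0.0093. TLR7 was closest to CD3E, a T cell receptor component, with 0.014, and TLR5 to IL2RB, an interleukin receptor chain of lymphocytes, with 0.046. TLR3 was closest to AP3B1, an endosomal sorting adaptor, with 0.033, and then to the enterocyte aminopeptidase ANPEP, with 0.039. TLR21 was closest to IL17RC, an interleukin-17 receptor chain, with 0.037. TLR1B was closest to POU2AF1, a B cell coactivator, with 0.026, and TLR1A to GZMA, a granzyme of cytotoxic cells, with 0.027. The next closest gene was often of another list. It was ITGB3 of the thrombocyte list for TLR2A (0.056), MARCO for TLR7 (0.035) and CD8A for TLR5 (0.053). For TLR21 it was ZNFX1 (0.040), for TLR1B IL17RE (0.053) and for TLR1A NFKBIA (0.036). The closeness depends on the scale, which compresses low genes. TLR2A and MPEG1 both had a range of 0.90 on it, but with a pseudocount of 0.1 that of TLR2A was 1.28. Likeness was not recomputed with that pseudocount. With 3 values per gene a close match is easily found, so these are descriptions only.

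Transcripts of the proteins that carry, fold and load the receptors ranged from far above the receptors to below most of them. Of 9 accessory and trafficking genes, 8 had a mean of at least 1 FPKM, 5 exceeded TLR3 and 4 did not. Of all 15675 genes, 6336 exceeded TLR3. HSP90B1, the endoplasmic reticulum chaperone of Toll-like receptors, was at 349 ± 68.0 FPKM and its co-chaperone CNPY3 at 266 ± 14.2. UNC93B1, which escorts nucleic acid receptors to endosomes, was at 20.72, 19.58 and 18.27 FPKM in pools 1, 2 and 3. TLR7 was below it by a wide margin, with a difference of TLR7 minus UNC93B1 of -3.08 ± 0.33 on the log2(FPKM + 1) scale.

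The partners of TLR4 were unequal. LY96, which encodes MD-2, was at 18.39, 16.03 and 20.19 FPKM in pools 1, 2 and 3, and TLR4 minus LY96 was -2.81 ± 0.22 on the log2(FPKM + 1) scale. CD14, which hands lipopolysaccharide to TLR4 and MD-2, was at 0.66, 0.61 and 0.49 FPKM, and TLR4 exceeded it by 0.79 ± 0.11. Both orders held in all 3 pools without overlap. CD36, a scavenger receptor that assists TLR2 in mammals, had the widest range of the accessory genes, at 7.82, 9.31 and 3.54 FPKM. It was lowest in pool 3, whereas TLR2A was highest there.

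Endosomal proteases, which in mammals cut nucleic acid receptors into their active form, were abundant. The median of the 7 genes was 81.5 FPKM, and CTSB, LGMN and CTSS were at 282 ± 65.8, 265 ± 30.6 and 234 ± 17.6 FPKM. CTSK, a cathepsin that stromal cells also express, had the widest range, at 17.72, 25.97 and 44.19 FPKM.

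Of 5 adaptors measured, 3 lay above TLR3, as did 6336 of all 15675 genes. TIRAP, which bridges surface receptors to MYD88, was at 45.47, 34.03 and 32.85 FPKM in pools 1, 2 and 3, and TICAM1, the adaptor of TLR3, at 27.89, 25.74 and 27.76. MYD88, the adaptor of most other receptors, was at 14.38, 14.17 and 17.86 FPKM. TLR3 minus TICAM1 was -1.26 ± 0.22 and MYD88 minus TICAM1 was -0.78 ± 0.15 on the log2(FPKM + 1) scale, without overlap in either pair. SARM1, a TIR protein best known from neurons, was under 1 FPKM in every pool. It was named after its value was seen.

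The signalling genes downstream had medians above that of the 11570 genes, which was 12.7 FPKM. The median of 16 proximal kinase and ubiquitin genes was 19.8 FPKM, and 12 of them exceeded TLR3, against 6336 of all 15675 genes. Highest were the ubiquitin-conjugating enzyme UBE2N at 45.0 ± 3.30 FPKM and the kinases RIPK1 and CHUK at 41.3 ± 3.44 and 39.7 ± 0.784. The median of 11 transcription factors was 23.5 FPKM, led by JUN at 199 ± 15.4, IRF1 at 165 ± 17.7 and IRF8 at 141 ± 10.5. IRF7, the interferon regulatory factor that chickens use where mammals have IRF3, was at 64.62, 40.15 and 39.65 FPKM. It was among 5 of the 11 transcription factors highest in pool 1, against a background of 24.8% of genes.

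Negative regulators had a median of 25.1 FPKM, close to that of the transcription factors. Of the 16, 14 exceeded TLR3, against 6336 of all 15675 genes. NFKBIE and NFKBIA, inhibitors that hold NF-kappaB in the cytoplasm, were at 85.7 ± 28.9 and 79.6 ± 8.21 FPKM. NFKBIZ, an atypical nuclear member of that family, was at 65.5 ± 6.87 FPKM, and TNIP1, a ubiquitin-binding brake on NF-kappaB, at 57.0 ± 5.44. NFKBIE had the widest range of the list, at 117.86, 77.31 and 61.98 FPKM in pools 1, 2 and 3. It was among 6 of the 16 negative regulators highest in pool 1, against a background of 24.8% of genes.

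Genes that Toll-like receptors are known to induce were mixed in level. Of 17 measured, 13 had a mean of at least 1 FPKM, with a median of 6.54 FPKM, or 3.56 FPKM over all 17. LITAF was at 208 ± 20.7 FPKM, the chemokines CCL5 and CCL20 at 42.7 ± 14.2 and 30.0 ± 4.62, and the cytokine IL18 at 18.8 ± 2.56. IL8L1, a chemokine that attracts heterophils, had the widest range, at 3.06, 0.71 and 1.98 FPKM.

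Other sensors reached higher levels than most Toll-like receptors. The median of 15 other pattern recognition receptors and their adaptors with a mean of at least 1 FPKM was 7.73 FPKM. It lay above the 2.60 FPKM of the 8 Toll-like receptors and below the 12.7 FPKM of the 11570 genes. Of the 16 measured, 6 exceeded TLR3, which is near the share of all genes, 6336 of 15675. The list was led by ZNFX1, a helicase-like RNA sensor, at 20.2 ± 3.93 FPKM and TMEM173, which encodes the DNA-sensing adaptor STING, at 19.1 ± 2.33. IFIH1, which encodes MDA5, a sensor of double-stranded RNA in the cytosol of birds, was at 19.75, 18.60 and 17.38 FPKM, and EIF2AK2, the RNA-activated kinase PKR, at 17.6 ± 2.07. Receptors of the interleukin-1 and interleukin-17 families, of which the interleukin-1 type shares the TIR domain, had a median of 2.22 FPKM over 7 genes, likewise low. IL1RL1 had the widest range among them, at 1.63, 2.75 and 9.76 FPKM in pools 1, 2 and 3, and IL17RC the highest mean, at 44.5 ± 7.02.

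**Figure D4:**
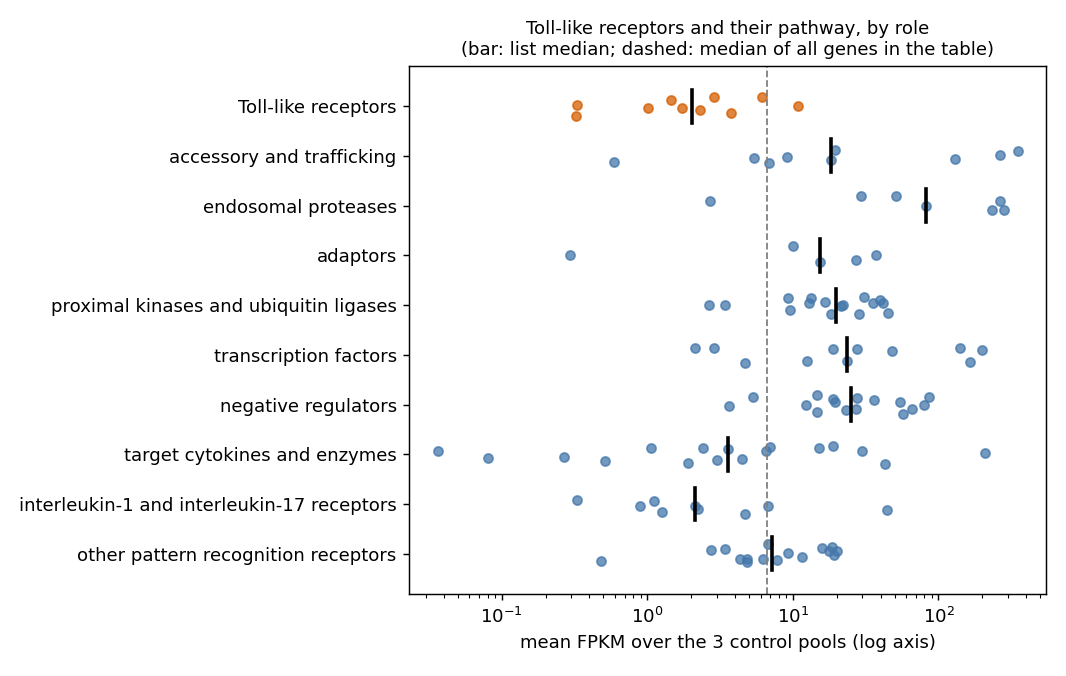
Mean FPKM over the 3 control pools (horizontal log axis) of each measured gene, by role, with the median of each list (bar) and of all genes in the table (dashed line, 6.64 FPKM). These medians are over all measured genes, with no minimum FPKM. The median Toll-like receptor, at 2.03 FPKM, lies left of the medians of adaptors, kinases, transcription factors and negative regulators.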

How the data were processed

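Per the labels' protocols, jejunal mucosa RNA was pooled from 4 hens per library and made into cDNA after poly(A) selection or removal of ribosomal RNA. The submitters' processing notes list the build GRCg6a and, with no roles, HTSeq 0.6.1, HISAT2 2.0.1, DESeq2 and cutadapt 1.9.1. FPKM to 2 decimals were deposited by the authors, per the file headers, and used here without rescaling. Estimated counts deposited beside them were unrelated to FPKM across 15675 genes (r of log2 values 0.0090, 0.0063 and 0.0046 in pools 1, 2 and 3) and entered no result. Depth was therefore not taken from these counts and was not determined. Among 1733 genes of low FPKM, the fullest bin of the log2 ratio of pool 2 to pool 1 held 136 genes, and no depth was derived from it. The table's 6 other value columns belong to no labelled sample and were left out.

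All libraries belong to 1 group, so no contrast was fitted. Nothing says that the labels' replicates are more than separate pools. Levels are FPKM with SD over pools, differences use log2(FPKM + 1), and genes averaging at least 1 FPKM entered ranges and medians. A range above 1 was counted, a step tested on simulated data. Pairs used an exact sign-flip permutation test.

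Of 220 listed symbols in 18 lists, 196 matched by symbol and 7 by a RefSeq synonym (GRCg7b), with 1 synonym of another gene excluded. The 10 members matched by symbol in the table. Named genes were all members, up to 4 genes of highest mean and the widest-ranging gene of each list, genes of the pairs, and the genes closest to each member. CATH1, LECT2, F13A1, SARM1 and SLC7A6 were named after their values were seen. Members and lists were chosen with earlier results of these data known. Alternatives were a pseudocount of 0.1, a minimum of 5 FPKM or none, equal sums, median-ratio scaling, each pool left out and, added after seeing the data, sums without TLR21. Figures used matplotlib 3.10.9, and values pandas 2.3.3 and numpy 2.4.6 in Python 3.11.15.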

Additional observations from a re-analysis of the deposited data

How the results depend on the processing

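The order of the 10 receptors by mean FPKM was the same under equal sums and median-ratio scaling and without pool 3. Without pool 1, TLR2A passed TLR1A, and without pool 1 or pool 2, TLR2B passed TLR15. The number of neighbours whose pools did not overlap, 3 of 9, was 4 to 5 with a pool left out, since ranges over fewer pools are narrower. With a pseudocount of 0.1, 1 of the 8 receptors with a mean of at least 1 FPKM, TLR2A, had a range above 1, as had TLR2B at 1.51 below that mean, and so had 1374 genes in all, against 817 with a pseudocount of 1. That number over all genes was 464 among genes of at least 5 FPKM and 185 to 684 with a pool left out. The summed FPKM of the family was 30.6 to 30.8 with a pool left out and 24.6 without TLR21. All 11 pairs kept their direction in every pool, but no alternative run could have changed it. Scaling and pseudocount act alike on both genes in a pool, and leaving out a pool only removes values. Median-ratio scaling moved the median of all genes in a pool by at most 0.07 on the log2 scale. No paired analysis was possible between groups because the libraries form 1 group. With depth undetermined, the counting precision of the receptors under 1 FPKM, TLR15 and TLR2B, is not known. Their coefficients of variation over the pools were 12.4% and 84.8%.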
